A study of Mus musculus with 8 samples.

Results

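The α-defensin genes described here are Defa24, Defa30, Defa39, Defa38, Defa17, Defa26, Defa3 and Defa40, which are 8 of the 28 coding Defa genes of the mouse and 8 of the 55414 gene IDs in the count table. The 8 genes were chosen by their counts and by their shares of each other in the same 8 libraries, so their levels and ratios are given as a description, without a test. Paneth cells were sorted by FACS from the small intestine of C57BL/6J mice that drank Milli-Q water or water with 25 mM ZnSO4 for 7 days, with 4 libraries per group. Both groups carried the same genotype, and the labels name no further allele or agent. The age of the mice was not analysed here. Sorted cells were measured in bulk, so fewer Paneth cells and less defensin RNA per cell cannot be told apart. Library totals ran from 20760764 to 24117111 counts, and zinc replicate 3 stood apart from the other libraries for several Defa genes outside the 8, and the ratios and ranges of those genes are also given without it.

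Paneth cells lie at the base of the small intestinal crypts and release granules rich in antimicrobial peptides. α-Defensins, called cryptdins in the mouse, are made as prepropeptides with a signal peptide and an acidic propiece. In mouse Paneth cells the metalloproteinase Mmp7 removes the propiece and sets the mature peptide free. The mature peptide is small and rich in cationic residues, and its conserved cysteines pair into disulfide bonds. A related subfamily, the cryptdin-related sequences, has more cysteines in its mature part and shares the signal peptide and propiece.

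The members fall into both of these types. Defa24, Defa30, Defa17, Defa26, Defa3 and Defa40 encode proteins of 93 residues with 6 cysteines, the layout of a classical α-defensin. Defa39 and Defa38 encode proteins of 116 residues with 11 cysteines, the cysteine-rich layout. The stretch of coding sequence from the first to the last cysteine codon is printed for each member, because it holds the part of the peptide that carries the disulfide bonds and shows how the members differ. It was read from the GENCODE transcripts on GRCm39, from 5′ to 3′ on the coding strand, with the cysteine codons in capitals, and it lies in coding exon 2 of every member.
Defa24, chr8:22225301-22225387, plus strand: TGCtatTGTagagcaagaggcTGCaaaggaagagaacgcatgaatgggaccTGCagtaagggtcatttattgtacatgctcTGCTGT
Defa30, chr8:21625427-21625513, plus strand: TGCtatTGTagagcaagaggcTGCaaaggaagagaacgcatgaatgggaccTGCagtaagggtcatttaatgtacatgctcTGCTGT
Defa17, chr8:22146565-22146651, plus strand: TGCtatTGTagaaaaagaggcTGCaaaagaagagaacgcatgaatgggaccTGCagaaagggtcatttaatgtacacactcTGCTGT
Defa3, chr8:21778207-21778293, plus strand: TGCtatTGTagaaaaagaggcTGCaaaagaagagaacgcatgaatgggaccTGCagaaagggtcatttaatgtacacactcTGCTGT
Defa26, chr8:22108806-22108892, plus strand: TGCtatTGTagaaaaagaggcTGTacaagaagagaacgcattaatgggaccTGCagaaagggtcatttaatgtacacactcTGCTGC
Defa40, chr8:21740385-21740471, plus strand: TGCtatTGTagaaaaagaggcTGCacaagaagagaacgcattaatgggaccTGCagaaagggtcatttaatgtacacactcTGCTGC
Defa39, chr8:22192647-22192802, minus strand: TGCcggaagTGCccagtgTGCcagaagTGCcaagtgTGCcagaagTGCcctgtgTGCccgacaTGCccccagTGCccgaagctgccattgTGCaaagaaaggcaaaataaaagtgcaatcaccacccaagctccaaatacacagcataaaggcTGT
Defa38, chr8:21585093-21585248, minus strand: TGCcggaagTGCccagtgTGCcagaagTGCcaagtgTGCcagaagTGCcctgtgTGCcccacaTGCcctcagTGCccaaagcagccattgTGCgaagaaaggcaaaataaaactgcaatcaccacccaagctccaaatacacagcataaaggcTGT

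The short members differed from each other by 0 to 11 of the 87 bases of this stretch over 15 pairs. Positions are counted from 1 at the first base of the stretch. Defa24 and Defa30 differed by T70A alone, which changes a residue. Defa26 and Defa40 differed by T24C alone, which leaves the cysteine unchanged. Defa17 and Defa3 were identical over all 87 bases. Defa24 and Defa17 differed by 7 bases, and G13A, C14A and T57A were among them. The 156-base stretches of Defa39 and Defa38 differed by 6 bases, of which T83A, A94G and G113C change a residue.

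Whole proteins followed the same division. The 15 pairs of short members were 78.5 to 100% identical, with a median of 88.2%. Defa24 and Defa30 were 97.85% identical, and the proteins of Defa17 and Defa3 were the same over all 93 residues. Defa39 and Defa38 were 94.0% identical to each other, and the 12 pairs of a long and a short member were 45.4 to 49.6% identical. From the first cysteine to the end, the predicted net charge, counted as lysines and arginines minus acidic residues, was 6 for Defa24, Defa30 and Defa38, 7 for Defa26 and Defa40, 8 for Defa39 and 9 for Defa17 and Defa3.

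All 8 genes lie in the α-defensin cluster on chromosome 8. Defa38 comes first along the chromosome, at 21584982 to 21586111, and Defa24 comes last of all 28 coding genes, at 22224506 to 22225490. The members are not neighbours as a block, since they take places 5, 6, 10, 11, 24, 25, 27 and 28 along the cluster, and Defa38 and Defa39 are transcribed from the minus strand. Some member loci overlap other annotations. The pseudogene Defa-ps4 overlaps Defa30, the snoRNA Gm24568 overlaps Defa38, Gm22447 and Gm7869 overlap Defa39, and the long non-coding RNA Gm65300 spans Defa3 and Defa40.

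How far reads can be told apart differs between members. For Defa24, 93.4% of the 75-base windows of its transcript occurred in no other Defa transcript, pseudogenes included. The share was 88.5% for Defa39, 86.5% for Defa40, 85.9% for Defa26, 81.2% for Defa30 and 69.0% for Defa38. Defa17 and Defa3 stand apart with 8.07 and 8.33%. The median of the 8 members was 83.5%, against 12.6% for the other 20 coding Defa genes. The sources used here do not say how reads that fit several genes, or reads from transcripts that join sequence of several Defa genes, were counted. The counts of Defa17 and Defa3 are therefore uncertain. Defa2, Defa20, Defa33 and Defa36, with 0% unique windows, had means of 0 to 1.375 counts. The study, which quantified reads with Salmon, lists these 4 genes among the abundant Defa transcripts of a typical experiment. It also lists Defa23 there, which has 25.9% unique windows and had a mean of 1.125 counts here. Defa17, with 8.07%, had 38004 to 63245 counts, so the share of unique windows did not by itself sort genes with counts from genes without. Levels and shares compared between genes carry the same uncertainty, and the treatment of shared reads was not tested.

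Promoter sequence was found for Defa30 and Defa38 in the RefSeq table of GRCm38.p6, which matched 16 coding Defa genes. The 50 bases around the TATA motif are shown, with the motif in capitals, for a short and a long member whose count ratio varied little between libraries (SD 0.08 on the log2 scale within groups, described further on).
Defa30, chr8:21134569-21134618, plus strand: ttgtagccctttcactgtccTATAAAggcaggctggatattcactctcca
Defa38, chr8:21096095-21096144, minus strand: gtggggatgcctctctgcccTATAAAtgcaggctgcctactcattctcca
The windows were identical at 35 of 50 bases. Both strands of the 300-base promoters were searched, and the 3 motifs that begin with CTTTG cannot match at the same place. TATAAA was in 15 of 16 coding Defa promoters and in 13.6% of all 32851 promoters. CTTTGAT, a sequence of the kind bound by Wnt-responsive TCF factors, was in 13 of 16 Defa promoters, 1 of the 2 members' among them, and in 3.73% of all promoters. CTTTGTT and CTTTGAA were in 0 of 16, against 5.85 and 5.14% of all promoters. A match is a description of letters and not a bound site.

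The sort was checked against marker lists. Lyz1, the lysozyme of Paneth cell granules, took 14.3 to 17.4% of all counts, and all 7 Paneth cell markers were detected. The 7 include Defa24, a member chosen on these counts, which therefore adds nothing to this check. Enterocyte markers (4 of 8 with a mean of at least 1 CPM, the usual scaling of counts to a common library total) summed to 265 to 383 CPM over all libraries, led by Anpep. Goblet cell markers, all 6 detected and led by Spink4, summed to 8659 to 10793 CPM with water and to 10304 to 14312 CPM with zinc. Stem cell markers, all 4 detected and led by Olfm4, summed to 3324 to 6944 CPM with water and 3449 to 3767 CPM with zinc. Enteroendocrine markers (3 of 5, led by Chgb) and tuft cell markers (4 of 4, led by Dclk1) summed to at most 90.4 and 145 CPM. Of leukocyte, stromal and erythroid markers, led by Ptprc, Pecam1 and Hbb-bs, none had a mean of 1 CPM, and 2 leukocyte and 2 stromal markers were at 0 in every library. The part of these cells in the values below was not tested.

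The 8 genes together took 37.0, 30.4, 30.8 and 25.4% of all counts in water replicates 1 to 4. In zinc replicates 1 to 4 they took 34.0, 29.9, 32.0 and 24.4%. The groups overlapped almost fully, and in both the library numbered 1 was the highest and the library numbered 4 the lowest. The means were 30.9% ± 4.75 for water and 30.1% ± 4.13 for zinc (SD, n = 4 per group), so the difference of -0.81 percentage points was smaller than the SD of either group. It rested on single libraries, being 1.22 points without water replicate 1, 1.08 without zinc replicate 4, -2.64 without water replicate 4, -2.11 without zinc replicate 1 and -1.44 without zinc replicate 3. The members were 86.8 to 96.5% of the counts of all 28 coding Defa genes. Other Defa genes without unique windows, such as Defa2, Defa20, Defa33 and Defa36, had almost no counts, and neither had Defa23, with 25.9% unique windows. This share therefore carries the uncertainty about shared reads given above.

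Defa24, a classical cryptdin, was the most abundant gene of the whole table. Its counts were 4271971, 3861595, 3849170 and 3194629 with water and 4170811, 3559059, 4014151 and 2916960 with zinc. It took 13.8 to 20.4% of all counts, with a mean of 17.4% ± 2.31 with water and 16.7% ± 2.19 with zinc (SD, n = 4 per group). The groups overlapped, and water replicate 1 was the highest and zinc replicate 4 the lowest library.

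Defa30, the near copy of Defa24, had 1353591, 1229358, 1293837 and 980036 counts with water. With zinc it had 1301011, 1076443, 1529550 and 910625 counts. Zinc replicate 3 held the highest count and zinc replicate 4 the lowest, so in raw counts the zinc group spanned the whole range of the water group. Per total count water replicate 1 was the highest, at 6.461% against 6.342% in zinc replicate 3.

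Defa39, the higher of the cysteine-rich members by count, had 1173473, 1015116, 923469 and 635761 counts with water and 1020670, 797022, 1138341 and 662425 with zinc. Its part of all counts averaged 4.28% ± 1.09 in the water group and 4.10% ± 0.756 in the zinc group (SD, n = 4 per group). It had the widest range of the 8 members, 1.90-fold between the highest share in water replicate 1 and the lowest in water replicate 4. Defa38, the other cysteine-rich member, had 795351, 718195, 647318 and 564660 counts with water and 764226, 651563, 873461 and 545610 with zinc. The groups overlapped for both genes.

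The scarcer members by count are all of the short type, and the low count of Defa3 is uncertain. Defa17 ranged from 43459 to 63245 counts with water and from 38004 to 59134 with zinc. Defa26 ranged from 36665 to 51560 and from 39150 to 57205 counts, and Defa40 from 19329 to 27723 and from 21783 to 30436. Defa3 was the lowest, at 3882 to 6256 counts with water and 4307 to 6395 with zinc. For each of them the groups overlapped.

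**Figure D1:**
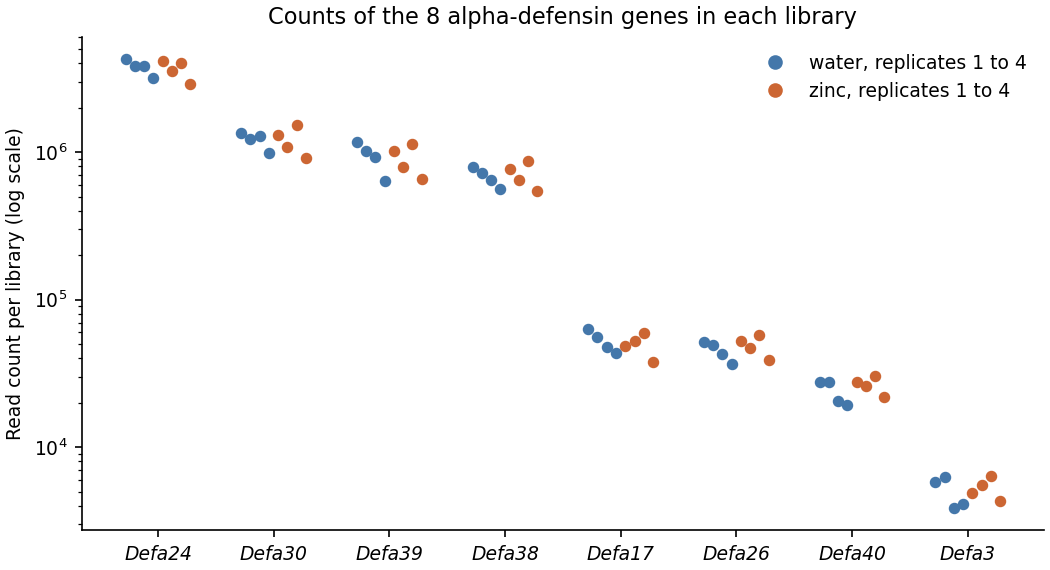
Read count of each member in each library, on a log axis. Each point is 1 library, ordered by replicate number within water (blue) and zinc (orange), and Defa24 lies at 2916960 to 4271971 counts while Defa3 lies at 3882 to 6395.

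Per total count, all 8 members were highest in water replicate 1. The lowest library was zinc replicate 4 for 4 members (Defa24, Defa30, Defa38 and Defa17), water replicate 4 for 3 (Defa39, Defa26 and Defa40) and water replicate 3 for Defa3. The highest share of all counts was 1.45 to 1.90 times the lowest over the 8 members. Movement of this kind cancels in ratios between members, which also do not depend on how libraries are scaled.

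Within the summed counts of the 8 members, Defa24 held 55.2, 55.5, 56.4 and 58.3% with water and 56.4, 57.3, 52.1 and 56.8% with zinc. The means were 56.3% ± 1.42 for water and 55.6% ± 2.40 for zinc (SD, n = 4 per group). Zinc replicate 3 was the lowest of the 8 libraries, and without it the mean of the other 7 was 56.54%. Counting error was far smaller, since the exact (Clopper-Pearson) 95% interval of any member's share in any library was at most 0.0428 percentage points to either side. Such intervals cover counting error only, and reads without molecular identifiers are not independent molecules.

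Defa30 held 17.5, 17.7, 19.0 and 17.9% of the sum with water and 17.6, 17.3, 19.8 and 17.7% with zinc. Replicate 3 was the highest library in each group. Defa39 held 11.6 to 15.2% with water and 12.8 to 14.8% with zinc, with means of 13.7% ± 1.56 and 13.6% ± 0.914 (SD, n = 4 per group). Defa38 held 10.3, 10.3, 9.48 and 10.3% with water and 10.3, 10.5, 11.3 and 10.6% with zinc, with means of 10.1% ± 0.409 and 10.7% ± 0.440 (SD, n = 4 per group). The groups barely separated for Defa38, with 10.31% in water replicate 2 and 10.34% in zinc replicate 1.

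Defa17 held 0.778% ± 0.0556 of the sum with water and 0.751% ± 0.0739 with zinc (SD, n = 4 per group). Defa26 held 0.666, 0.704, 0.627 and 0.669% with water and 0.712, 0.757, 0.742 and 0.762% with zinc. Its groups did not overlap, with means of 0.666% ± 0.0316 and 0.743% ± 0.0226 (SD, n = 4 per group). Defa40 held 0.353% ± 0.0396 with water and 0.403% ± 0.0216 with zinc, and Defa3 held 0.0742% ± 0.0135 and 0.0804% ± 0.0102 (SD, n = 4 per group), with overlapping groups for both.

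Defa38 and Defa26 were therefore the 2 of 8 members whose ratio to the other 7 did not overlap between groups. Among 1667 other genes with a mean of at least 50 CPM, 0.3% had a ratio to the summed members that did not overlap between groups. Since these ratios served to choose the members, nothing is read from that count. The log2 ratio to the other 7 members was higher with zinc by 0.16 for Defa26 and by 0.09 for Defa38, with a pooled SD within groups of 0.06 and 0.07.

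**Figure D2:**
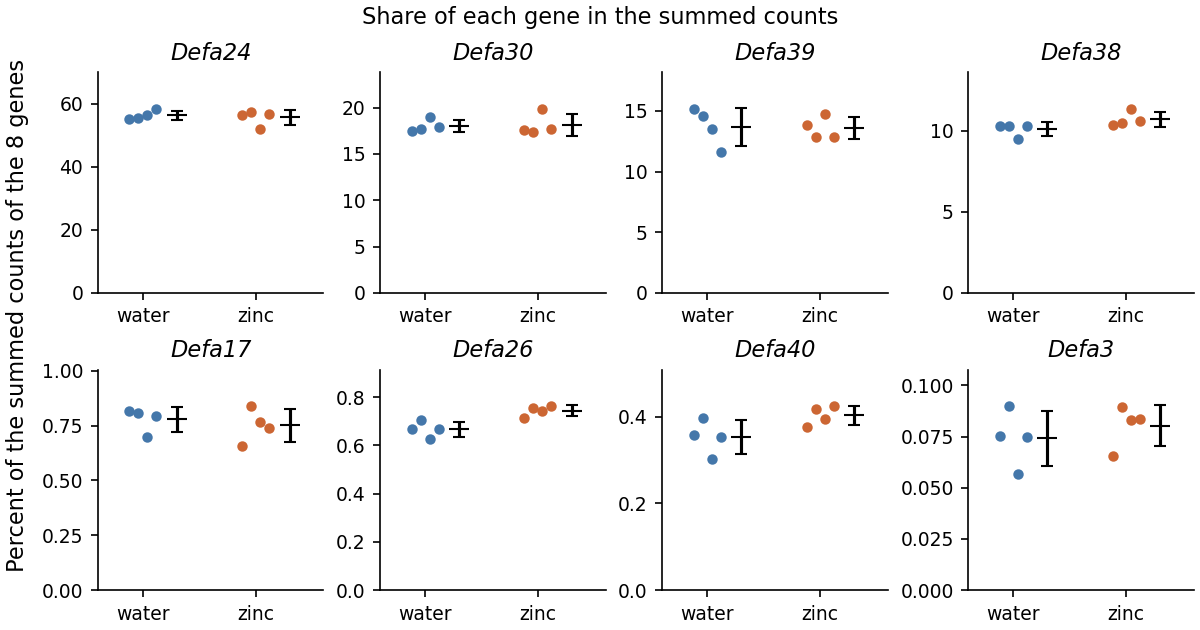
Percent of the summed counts of the 8 members held by each, with 1 panel per gene and axes from 0. Points are libraries in order of replicate number, and bars give the mean and SD of 4 libraries; only Defa38 and Defa26 have groups that do not overlap, and zinc replicate 3 is the low point of Defa24 at 52.1%.

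Ratios between single members put this in other terms. There were 3.16, 3.14, 2.98 and 3.26 Defa24 counts per Defa30 count with water and 3.21, 3.31, 2.62 and 3.20 with zinc. The ratio varied by 1.26-fold over the 8 libraries, while the count of either gene per total count varied by 1.47- and 1.49-fold. Defa39 over Defa38 ran from 1.13 in water replicate 4 to 1.475 in water replicate 1. Defa17 over Defa3, whose counts are uncertain, ran from 8.82 to 12.2. Defa26 over Defa40 ran from 1.77 to 2.08, a range of 1.18-fold. Defa17 over Defa26 was 1.23, 1.14, 1.11 and 1.19 with water and 0.926, 1.107, 1.03 and 0.971 with zinc. The groups barely separated, with zinc replicate 2 at 1.107 and water replicate 3 at 1.11. Defa17 counts are uncertain and these ratios served to choose the members, so nothing is read from this.

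The spread of a ratio was taken as the SD of its log2 value within groups, pooled over water and zinc. Over the 28 pairs of members the median was 0.14 and the range 0.05 to 0.27. The steadiest pair was Defa38 with Defa26 at 0.05, a long and a short member whose ratio varied by 1.11-fold over the 8 libraries. The widest was Defa30 with Defa3 at 0.27. The 4 near-copy pairs (Defa24 with Defa30, Defa39 with Defa38, Defa17 with Defa3, Defa26 with Defa40) had a median of 0.12, and the other 24 pairs had a median of 0.14. The 6 pairs of the abundant members and the 6 pairs of the scarcer members had medians of 0.12 and 0.11, and the 16 pairs across these sets had 0.16.

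Against this, the 64 pairs of a member and another coding Defa gene with a mean of at least 100 counts had a median SD of 0.62 (0.12 to 1.01), and the 28 pairs among those 8 other genes had 0.43 (0.07 to 0.94). Without zinc replicate 3 these medians were 0.29 and 0.23, and that of the members was 0.15. Small spreads were not particular to the 8 genes. The 16 pairs of a member with Defa27 or Defa28, 2 scarce Defa genes named after their values were seen, had SDs of 0.12 to 0.29. Among pairs of other Defa genes, Defa21 with Defa22 had 0.07, Defa34 with Defa35 0.13 and Defa21 with Defa35 0.14. The 48 pairs of a member with the remaining 6 genes had SDs of 0.42 to 1.01, with a median of 0.72 and of 0.34 without zinc replicate 3. Over all 1401975 pairs of the 1675 genes with at least 50 CPM the median was 0.25, and 10.03% of those pairs were at or below the median of the members. The members were chosen for such ratios, so these values describe the choice and test nothing.

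**Figure D3:**
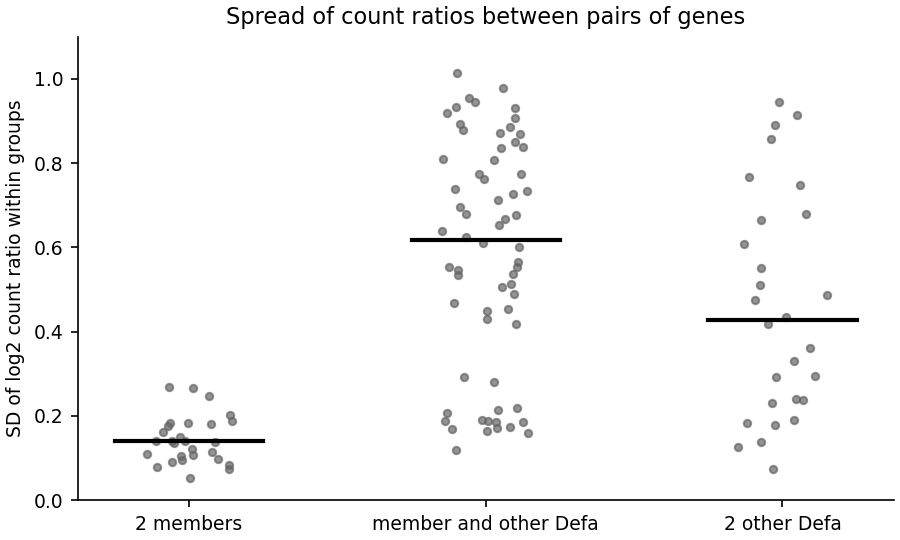
SD within groups of the log2 count ratio for each pair of genes, as points, with the median as a bar. The 28 pairs of members lie at 0.05 to 0.27, the 64 pairs of a member and another Defa gene at 0.12 to 1.01, and the 28 pairs of other Defa genes at 0.07 to 0.94, so the sets overlap.

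The spread of each member's own level was larger than that of its ratio to the other 7 for all 8 members. For Defa38 the SD within groups was 0.22 for log2 CPM on library totals and 0.07 for the log2 ratio. For Defa26 it was 0.20 and 0.06, and for Defa30 0.23 and 0.09. Defa24 had 0.19 and 0.12, Defa39 0.34 and 0.16, Defa17 0.24 and 0.13, and Defa40 0.22 and 0.13. Defa3 gained least, with 0.28 for the level and 0.24 for the ratio, and its lowest ratio was in water replicate 3.

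The 5 other coding Defa genes with the highest mean count are set beside the members, with no test of the difference. Defa21, a short α-defensin, stood at 3.06, 4.60, 3.24 and 6.62% of the summed members with water and at 5.68, 5.64, 1.24 and 5.70% with zinc. Zinc replicate 3 was the lowest of all 8 libraries, and the range was 5.34-fold, or 2.16-fold without it. Defa22, whose protein is 97.85% identical to that of Defa21, ranged by 6.19-fold, from 0.892% in zinc replicate 3 to 5.52% in water replicate 4, and by 2.21-fold without zinc replicate 3. Defa34 and Defa35, also short and 96.8% identical to each other, ranged by 4.04- and 4.12-fold, with zinc replicate 3 again lowest, and by 1.598- and 1.751-fold without it.

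Defa29 is of the cysteine-rich type, and its protein is 97.4% identical to that of Defa38 and 93.1% to that of Defa39. It stood at 1.98, 2.701, 1.67 and 2.60% of the summed members with water and at 2.83, 3.12, 1.38 and 3.23% with zinc. In zinc replicate 3 the log2 ratio of these 5 genes to the summed members lay 0.76 to 1.86 below its own mean over the libraries, whereas the members lay between 0.23 below and 0.17 above theirs. No other library of any member departed by more than 0.43 (Defa3 in water replicate 3). Position along the cluster did not divide these genes from the members, since Defa21 comes first and Defa34 lies between Defa17 and Defa39.

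**Figure D4:**
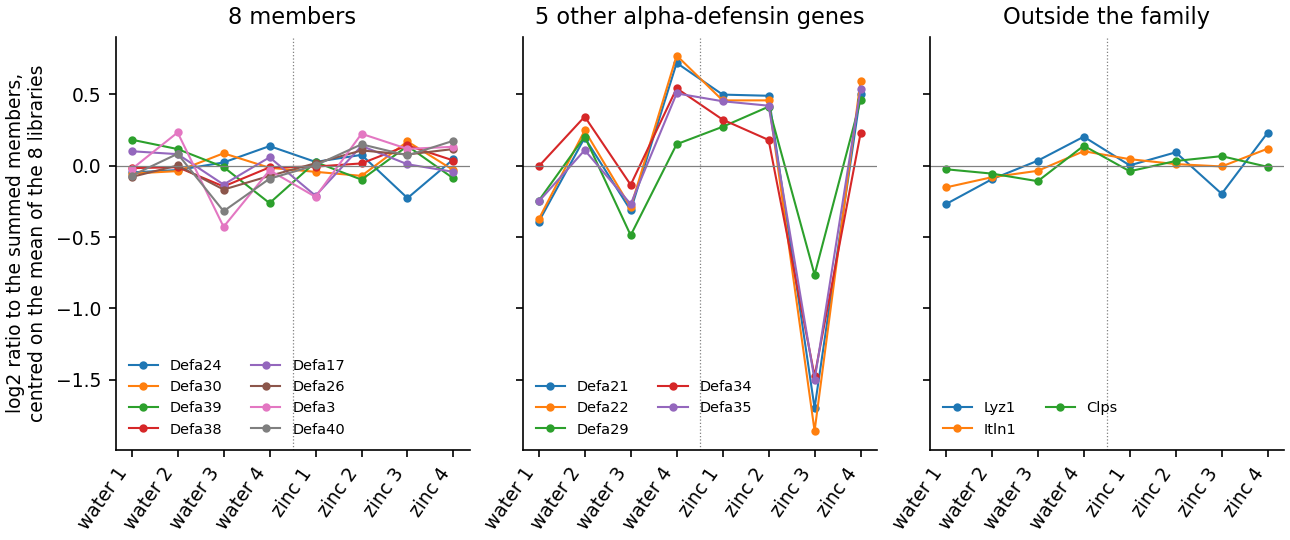
Log2 ratio of each gene to the summed members (for a member, to the other 7), centred on its mean over the 8 libraries, which are named on the horizontal axis. Lines only join the points of 1 gene; the members stay within 0.43 of their mean, while Defa21, Defa22, Defa34 and Defa35 fall by 1.47 to 1.86 below theirs in zinc replicate 3.

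Outside the family, the genes whose ratio to the summed members varied least within groups were Clps (SD 0.08), Itln1 (0.09), Tmed6 (0.13), Bambi (0.13) and Pnliprp1 (0.14), among 1667 genes with a median of 0.49 over 8 libraries. Clps encodes colipase, a cofactor of pancreatic lipase, and stood at 1.22 to 1.45% of the summed members. Itln1 encodes intelectin-1, a secreted lectin of Paneth and goblet cells, and stood at 21.9 to 26.4%. Bambi encodes a pseudoreceptor that dampens TGF-β signalling, and Pnliprp1 a relative of pancreatic lipase. Mmp7, the protease that activates mouse α-defensins, had an SD of 0.15 and ranked 7 of the 1667, and Lyz1 had 0.19 and ranked 15. Defa21 and Defa22 had 0.86 and 0.92, at ranks 1651 and 1657, and without zinc replicate 3 they had 0.40 and 0.42, at ranks 244 and 298. Defa27 and Defa28 lie under 50 CPM, outside the ranked genes, and had SDs of 0.15 and 0.19, close to those of Mmp7 and Lyz1.

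Levels of different genes are compared per length, as counts per kilobase of the canonical transcript scaled to a common total over all genes, as TPM values are. On this scale Defa24 stood at 339162 ± 19494 with water and 329431 ± 17400 with zinc (SD, n = 4 per group), and Defa30 at 106451 ± 8896 and 105706 ± 13170. Defa24 was above Defa30, and Defa30 above Defa38, in 8 of 8 libraries.

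Defa38 stood at 73123 ± 5910 with water and 76330 ± 7621 with zinc, and Defa39 at 69241 ± 12594 and 67212 ± 9025 (SD, n = 4 per group). Defa38 was above Defa39 in 7 of 8 libraries, but their ranges overlapped. The order of this pair turned with the length used, since Defa39 was above Defa38 in 8 of 8 libraries with merged exons or the coding length. The canonical transcript has 351 bases for Defa38 and 507 for Defa39, with 348 coding bases in each. Merged exons cover 595 and 582 bases. The higher level of Defa38 per canonical length thus goes with an annotated transcript that holds little beyond its coding bases. Both were above Defa26 in every library.

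Defa26 stood at 4555 ± 379 with water and 4994 ± 296 with zinc, and Defa17 at 4700 ± 505 and 4462 ± 521 (SD, n = 4 per group). Defa26 was higher in 5 of 8 libraries, so these neighbours did not differ beyond their spread. Defa40 followed at 2328 ± 305 and 2613 ± 125, and Defa3 was last at 447 ± 84.6 and 476 ± 61.0 (SD, n = 4 per group), each below the gene before it in 8 of 8 libraries. With the number of unique 75-base windows as the length, a choice made after the data had been seen, Defa17 stood above Defa26 and Defa3 above Defa40 in every library. In a typical experiment of the study, quantified with Salmon, Defa3 stood above Defa17, Defa17 above Defa26 and Defa26 above Defa40. Defa3 also stood above Defa30, Defa38 and Defa39 there, and below only Defa24 among the members. The study thus lists Defa3 as an abundant transcript, whereas it is last here, so its low level here may not hold. The places of Defa17 and Defa3 here rest on uncertain counts.

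**Figure D5:**
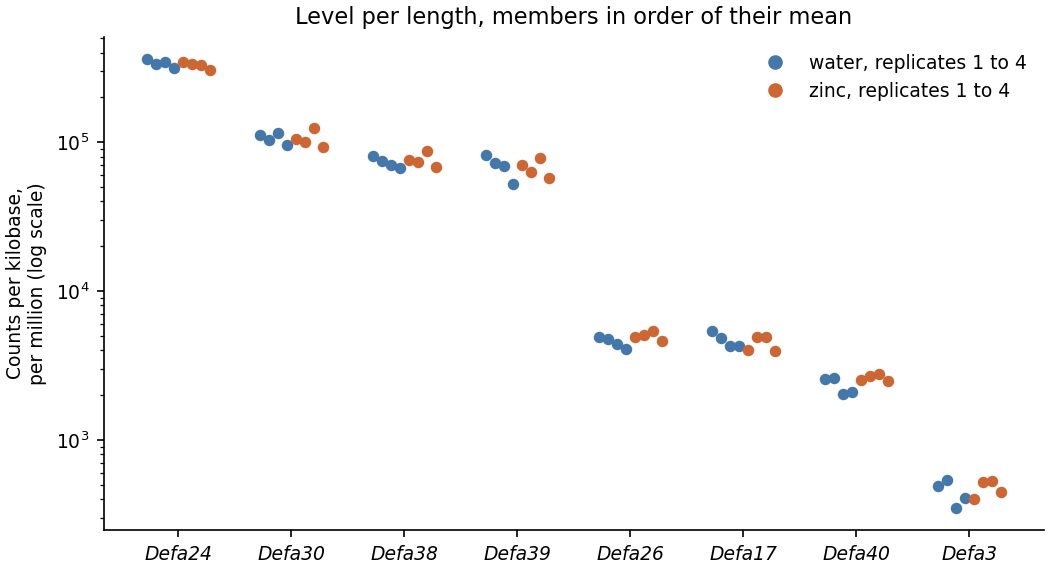
Counts per kilobase of canonical transcript, scaled as TPM values are, for each member in each library on a log axis, in order of the mean. Points are libraries (water blue, zinc orange); Defa38 and Defa39 overlap, as do Defa26 and Defa17, and between these pairs lies a gap from 52296 down to 5359.

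The comparison of zinc with water asked whether zinc in the drinking water changed Paneth cell transcripts. Over all 11988 genes tested by edgeR's quasi-likelihood test, 10 passed an adjusted p of 0.05, which is 0.0834%. Of the 8 members 0 passed, 0 had an unadjusted p under 0.05, and DESeq2 also called 0. The members had been chosen on these libraries, so their fold changes are a description. The log2 fold changes of zinc over water were -0.05 for Defa24, -0.03 for Defa30, -0.09 for Defa39 and 0.03 for Defa38. They were -0.12 for Defa17, 0.10 for Defa26, 0.03 for Defa3 and 0.13 for Defa40. The SE was 0.25 to 0.38, larger than any of these values. With the replicate number as a block the SE was 0.10 to 0.13, the values ran from -0.09 to 0.17, and 0 members were called. In the fit without a block the signs moved with single libraries. These were the libraries numbered 1 and 4, the extremes of both groups in the members' share of all counts. Without water replicate 1 all 8 values were above 0 (0.18 to 0.41), and without zinc replicate 4 they were 0.04 to 0.27. Without zinc replicate 1 all 8 were below 0 (-0.31 to -0.05), and without water replicate 4 they were -0.30 to -0.04. The median was 0.00 for the members and 0.01 for all genes tested.

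The other coding Defa genes gave 11 of 20 with enough counts to test. Of these 0 passed the threshold, 0 had an unadjusted p under 0.05 and DESeq2 called 0. Their log2 fold changes ran from -0.27 to 0.31 with a median of 0.08, and 7 of 11 were above 0. The median was 0.26 without zinc replicate 3, with 9 of 11 above 0, and -0.25 without zinc replicate 1, with 10 of 11 below 0. Defa21 and Defa22 had values of 0.14 (SE 0.43) and 0.08 (SE 0.45), and both were lowest in zinc replicate 3.

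The list of defensin production genes held the protease Mmp7, folding and secretory pathway genes, transcription factors of the Paneth lineage, genes of granule formation and the zinc transporter Slc30a2. Of its 16 genes 15 could be tested, 0 passed the threshold in edgeR, 0 had an unadjusted p under 0.05 and DESeq2 called 0. Values were above 0 for 11 and below 0 for 4, with a median of 0.06. This tally also rested on single libraries, since it was 7 above and 8 below without zinc replicate 4, and 8 above and 7 below without water replicate 3 or without water replicate 4. The level of Mmp7 was 5837 ± 893 CPM for water and 6122 ± 449 CPM for zinc (SD, n = 4 per group), and its log2 difference of 0.05 had an SE of 0.25 (edgeR's quasi-likelihood test, adjusted p = 0.998).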

How the data were processed

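Total RNA of sorted Paneth cells was made into stranded mRNA libraries. The authors deposited raw read counts, not normalized, in 1 table with 1 row per Ensembl ID and 8 columns. The labels name FastQC 0.12.0, STAR 2.7.0a, DESeq2 and mm39; the study's methods give another STAR release. No source used here names the counting program or says what was done with multi-mapped reads.

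IDs were matched to GENCODE M39 on GRCm39 (54749 of 55414 IDs, at least 99.99% of counts). Library totals were 20760764 to 24117111. Ratios, shares, SDs and intervals were computed in Python 3.11.15. Near-identical copies were compared by windows of 75 bases and by alignment (Biopython 1.88) of proteins translated from the annotated coding sequence. The zinc and water groups were contrasted with edgeR 4.0.16 under R 4.3.3 (default filter with a minimum count of 10, TMM, robust quasi-likelihood F test, Benjamini-Hochberg adjustment over all genes). An SE is the size of the log2 fold change divided by the root of the F statistic. The labels do not state that each library is a separate mouse, while the study describes its sequenced samples as taken from individual mice. The p-values measure the spread between these libraries. No libraries of a group agreed within sampling noise.

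The members and lists were chosen with earlier results of these data known. Named genes were the 8 members, the 5 other coding Defa genes with the highest mean count, Mmp7 and any listed production gene past the threshold, the 5 genes whose ratio to the summed members varied least, Lyz1, Itln1 and the highest gene of each marker list. On simulated counts for this comparison edgeR made 171 calls over 11856 genes, 14 of them false, and recovered 65.7% of 2-fold and 95.8% of 4-fold changes. Alternatives were RLE scaling, DESeq2 1.42.0, no low-count filter, the replicate number as a block, other denominators, lengths, window sizes and measures of spread, and each library left out in turn.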

Additional observations from a re-analysis of the deposited data

Results flagged for a closer look

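In groups of 4 libraries, a library was singled out when its distance from the nearest other library exceeded Dixon's 95% critical fraction of the group's range. Of 44 groups tested 8 had such a library, where chance gives about 1 in 20 for independent groups. These groups are not independent, since shares of 1 sum move together. The members were also chosen on such values, so nothing is read from the tally. Among shares of the summed members, zinc replicate 3 stood apart for Defa24 at 52.07% (the others at 56.4 to 57.3%) and for Defa30 at 19.84% (the others at 17.3 to 17.7%). Water replicate 3 stood apart for Defa38 at 9.48% (the others at 10.3%). On library totals, zinc replicate 4 stood apart for Defa40 at 1034 CPM (the others at 1247 to 1279 CPM). Relative to the summed members, zinc replicate 3 was also apart for Defa21 at 1.239%, Defa22 at 0.8925%, Defa34 at 0.0768% and Defa35 at 0.02043%, against at least 5.64, 4.44, 0.242 and 0.0775% in the other zinc libraries. The cause was not tested.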

How the results depend on the processing

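Over all genes the edgeR count of 10 became 66 without the low-count filter, 36 with DESeq2 and 32 with the replicate number as a block. It ran from 1 (without water replicate 2) to 15 (without zinc replicate 1) with single libraries left out, and was 4 without water replicate 3 and 3 without zinc replicate 2. The replicate numbers were not taken to pair the libraries, since water replicate 2 did not correlate best with its own number. Deviations of same-numbered libraries correlated at 0.233, 0, 0.127 and 0.263, against -0.21 to 0.04 for libraries of different numbers. Replicates 1, 3 and 4 each correlated best with their own number. The TMM factors of same-numbered libraries were also close. They were 0.76, 1.02, 1.07 and 1.21 for water replicates 1 to 4 and 0.77, 1.00, 1.05 and 1.23 for zinc replicates 1 to 4. A shared origin by number was not tested. With the replicate block the median SD of member ratios was 0.12, and the log2 fold changes of the members ran from -0.09 to 0.17 with SEs of 0.10 to 0.13, against 0.25 to 0.38 without it. In that fit 0 members had an unadjusted p under 0.05. The shares of Defa38, Defa26 and Defa40 in the summed members were higher with zinc in 4 of 4 same-numbered pairs, and those of the other 5 members in 2 of 4. Of the members, the other Defa genes and the production genes 0 were called under every alternative run. The members' share of all counts was 60.001% with water and 59.122% with zinc when counts were divided by length. With all coding Defa genes as the denominator, mean shares over the 8 libraries were 50.5% for Defa24, 16.33% for Defa30, 12.35% for Defa39, 9.389% for Defa38, 0.6902% for Defa17, 0.6361% for Defa26 and 0.3408% for Defa40. Per kilobase they were 11.4% for Defa39, 12.54% for Defa38, 0.8025% for Defa26 and 0.4156% for Defa40. These shifts follow from the changed denominator or length. The median SD of member ratios was 0.085 by the median absolute deviation, and the cause was not tested. The rank per length changed for 2 members with merged exons, 4 with the coding length and 4 with unique windows.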
